A study of Mus musculus with 2 samples.

Results

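The distal end of mouse chromosome 7, which holds the *H19-Igf2* locus and the *Kcnq1*/*Cdkn1c* imprinted cluster, was examined by comparative genomic hybridization (CGH) in the H19Δ1 and H19Δ2 AG-haESC lines. The domain was taken by position, as every probe on chromosome 7 that starts at or beyond 147 Mb on the mm9 build. It held 501 of the 170305 distinct probes of the array, spread over 5.52 Mb up to the last probe of the chromosome, and all 501 were measured on both arrays. AG-haESCs are embryonic stem cells with a haploid set of chromosomes, derived from androgenetic blastocysts, so their genome comes from sperm alone. H19Δ1 and H19Δ2 are 1 clone each of the parental line AGH-OG-3 (OG-3 in the labels). In both, CRISPR-Cas9 and a targeting vector had replaced the *H19* transcription unit and the imprinting control region (ICR) by a *loxP*-flanked *PGK-neo* cassette. The parental line, wild-type at *H19*, was the reference on both arrays. The ratios of the 2 lines share it and are not independent. Harvested cells were first left to settle on culture plates, a step that depletes feeder cells. All 3 lines are labelled haploid and share a C57BL/6 background and an *Oct4-eGFP* transgene. DNA of the H19Δ line carried Cy5 and DNA of AGH-OG-3 carried Cy3, with 1 array per line and no dye swap, so there was no test between lines or against replicates. Errors are SDs over probes, and a log2 ratio compares the H19Δ line with AGH-OG-3, where a value of 0 is the typical autosomal probe and 1 would be a doubling.

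*H19* and *Igf2* are the classic pair of reciprocally imprinted genes. *H19* makes a long non-coding RNA from the maternal allele, and *Igf2* encodes a fetal growth factor made from the paternal allele. The ICR between them is methylated on the paternal allele. On the unmethylated maternal allele it binds the insulator protein CTCF, which keeps the shared enhancers from *Igf2*. Further towards the telomere, a separate control region in *Kcnq1* carries the promoter of the non-coding RNA *Kcnq1ot1*, which silences neighbours such as *Cdkn1c*, an inhibitor of the cell cycle, on the paternal chromosome. CGH measures copies of DNA, so it reports neither expression nor methylation of these genes.

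The edit was made with 2 guides, sgRNA-4 and sgRNA-7. They are shown because they directed the cuts at the stretch that the probes were read for. The study lists each as a pair of cloning oligos. Without the cloning overhang they read, 5′ to 3′, with the 12 bases nearest the PAM in capitals:
sgRNA-7: gtccctctCACATCCTGCTC
sgRNA-4: gaccactgcAGGCATCGACGT
The first base of each is a G, and sgRNA-4 is 21 bases long against 20 for sgRNA-7. Neither guide was placed on mm9 here, so distances below are between probes.

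The deleted transcription unit also holds a microRNA. *Mir675* lies inside *H19* in the RefSeq gene table (GRCm38.p6), so a deletion of the unit takes both of its mature arms with it. They are shown because they are the only sequences of known function inside *H19* in the tables used here. With the seed, bases 2 to 8, in capitals they read:
mmu-miR-675-5p: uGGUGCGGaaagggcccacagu
mmu-miR-675-3p: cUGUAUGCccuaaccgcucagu
The 2 seeds differ, so the arms belong to different seed groups.

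Gene names could be set beside the probes only by order, since the array files give positions alone. All 19 genes listed for the cluster were found in the RefSeq table. From *H19* towards the telomere they run *Igf2*, *Ins2*, *Th*, *Ascl2*, *Tspan32*, *Cd81*, *Tssc4*, *Trpm5*, *Kcnq1*, *Kcnq1ot1*, *Cdkn1c*, *Slc22a18*, *Phlda2*, *Nap1l4*, *Tnfrsf22*, *Tnfrsf23*, *Osbpl5* and *Dhcr7*. None of the 19 lies on the centromeric side of *H19*, where the nearest genes are *Nctc1*, a non-coding RNA gene, *Mrpl23*, which encodes a mitochondrial ribosomal protein, and *Tnnt3*, which encodes a troponin of fast muscle. *Igf2* was taken at about 149.84 Mb and the *Kcnq1*/*Cdkn1c* cluster from about 150.2 to 150.7 Mb on mm9.

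Measures of array quality in the domain are given beside those of the whole array where both were computed. Of the 174305 spots of each array, 521 belonged to the domain, and 1 of these was left out on each array as an outlier. Over the whole array 151 spots were left out in H19Δ1 and 211 in H19Δ2. Single probes had a noise of 0.12 (log2) in both lines, estimated from differences between neighbours along the autosomes. Of the members, 5 were printed as 5 spots each, and the SD of their spots on 1 array lay between 0.05 and 0.19. Its median was 0.073 in H19Δ1 and 0.109 in H19Δ2, against 0.0845 and 0.0849 over all 1000 repeated probes. Every member was well above background in Cy3. The number of members with Cy5 not well above background was 1 in H19Δ1 and 2 in H19Δ2. Over the whole array 99.92% of spots had Cy5 well above background in each line. The distance between neighbouring probes had a median of 9.53 kb and was over 20 kb at 24 of 500 places.

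A loss was found at 1 place in the domain, in both lines, and it covered 2 neighbouring probes. These were picked as the members with a log2 ratio below -2 in both lines, so their values are a description. No other autosomal probe was this low in both lines, so the autosomal share of 0.00124% (2 of 161370) is the lost pair itself. The first, chr7:149761403-149761462, was bright in the reference, with Cy3 intensities of 2507 and 2450 on the H19Δ1 and H19Δ2 arrays. Its Cy5 intensity was 198 in H19Δ1 and 190 in H19Δ2. That leaves 7.83% and 7.71% of the reference, close to each other in both lines. As log2 ratios these are -3.67 for H19Δ1 and -3.70 for H19Δ2, with an error of 0.40 each by the scanner software's estimate for the spot.

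The residual Cy5 of this probe was above the 95th percentile of the negative controls, and below the brightest of them, at 1488 and 764. The 822 negative control spots had a median Cy5 intensity of 12.3 with H19Δ1 and 11.8 with H19Δ2, and 95th percentiles of 36.5 and 34.3. The second lost probe, chr7:149768746-149768805, was dim, with Cy3 intensities of 211 and 229 against array medians of 1036 and 1038. Its Cy5 intensity of 15.4 in H19Δ1 and 30.6 in H19Δ2 lay under those 95th percentiles and did not pass the scanner software's test for being well above background. In the processed intensities the loss there was therefore at least 3.76-fold in H19Δ1 and at least 4.31-fold in H19Δ2. The bound is taken against the lowest Cy5 intensity well above background on each array. It holds for those intensities only and was not reached with the other background correction below. Measured log2 ratios of -3.79 and -2.92 have no order at this signal. With normexp background correction this dim probe had log2 ratios of only -0.28 and -0.37, short of 0.5, while the bright one stayed at -3.51 and -3.52, so the call of the dim probe depends on the background correction. The lost probes were printed once each, in rows 692 and 826 of the array.

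**Figure D1:**
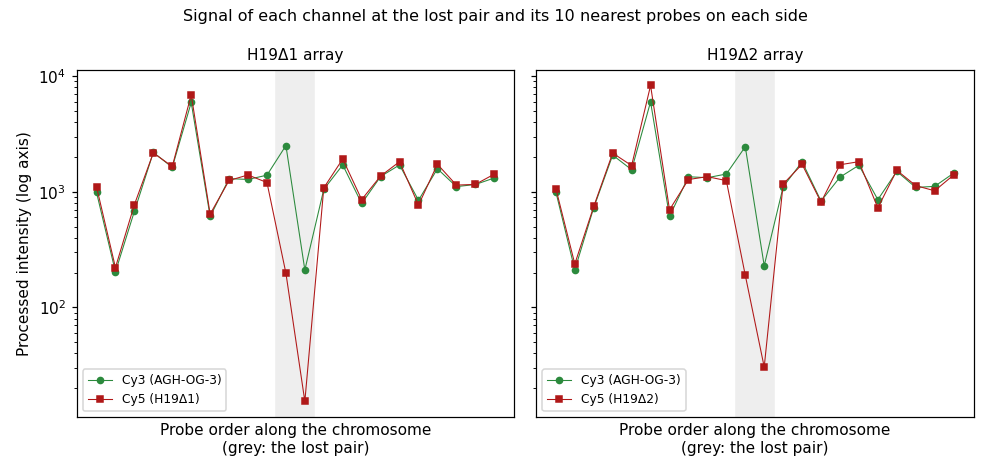
Processed Cy3 (AGH-OG-3, circles) and Cy5 (H19Δ line, squares) intensity on a log axis at the lost pair (grey) and the 10 nearest probes on each side, in order along the chromosome, for each array. Outside the grey band the channels mostly run close together. They part most in H19Δ2 at the probe starting at 149726178, with Cy3 at 5984 and Cy5 at 8293. Inside it Cy5 falls to 198 and 15.4 in H19Δ1 and to 190 and 30.6 in H19Δ2, while Cy3 stays at 2507 and 211 and at 2450 and 229.

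The borders of the loss were the same probes in both lines. From the outer ends of the lost pair, the loss was at least 7.40 kb long, a minimum that rests on the dim probe and is lost with normexp. The nearest probes that were not lost ended at 149754688 and started at 149782504, so it was at most 27.8 kb long. On the centromeric side the border is uncertain by 6.71 kb and on the telomeric side by 13.7 kb. Since no probe lies in these 2 gaps, unequal ends in the 2 lines would not be visible there. The study itself examined the targeted clones by PCR and Southern blot, and that evidence was not used for these limits.

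On the telomeric side the copy level returned at the first probe. The probe starting at 149782504 stood at 0.03 in H19Δ1 and at 0.07 in H19Δ2. The next, starting at 149801517, had 0.16 in H19Δ1 and -0.08 in H19Δ2. These were the only 2 probes between the lost pair and the *Igf2* window, and neither was low in both lines.

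On the centromeric side, towards *Nctc1* and *Mrpl23*, the first probe was slightly low in both lines. The probe ending at 149754688 stood at -0.22 in H19Δ1 and at -0.20 in H19Δ2. In Cy5 it kept intensities of 1201 and 1248, against 1391 and 1424 in Cy3. Ratios this low or lower in both lines were seen at 10 of 501 members, this probe and the lost pair among them, and at 1.06% of autosomal probes. The next probes outwards returned to 0.12 and 0.02 (start 149746211), -0.06 and -0.09 (start 149739482) and 0.06 and 0.18 (start 149732016) in H19Δ1 and H19Δ2. The fifth probe out, starting at 149726178, was above 0 in both lines, with 0.21 and 0.46, and was the highest of the centromeric flank in H19Δ2. It was also the brightest of the 10 nearest probes on this side, with Cy3 intensities of 5912 and 5984.

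**Figure D2:**
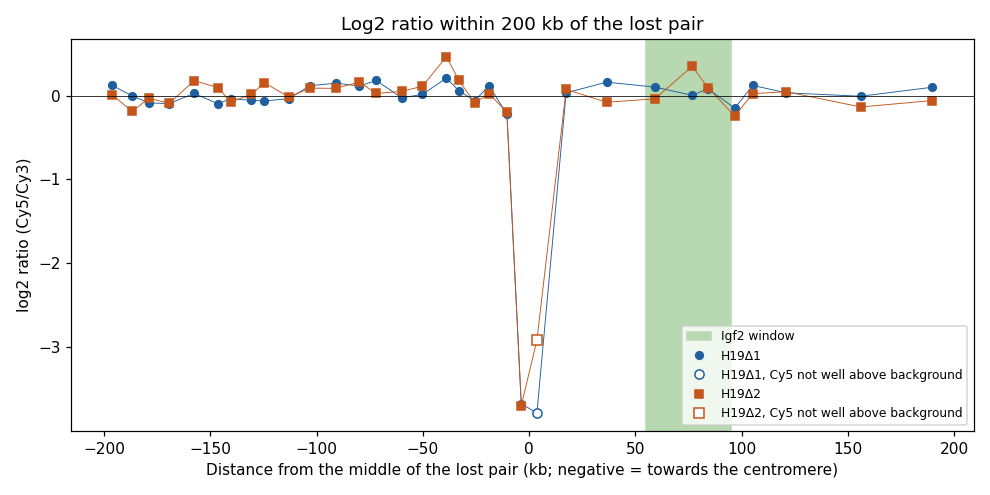
Log2 ratio of each probe within 200 kb of the middle of the lost pair, in H19Δ1 (circles) and H19Δ2 (squares), with open symbols where Cy5 was not well above background and the *Igf2* window in green. The lost pair lies far below all other probes shown. The probes on either side are at -0.22 and -0.20 and at 0.03 and 0.07, and in H19Δ2 single probes reach 0.46 and 0.35.

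No loss or gain past 0.5 was measured at *Igf2*, the growth factor gene next to the edit, in either line. The window of 20 kb on each side of its position held 3 probes, the first of them 55.4 kb beyond the lost pair. In H19Δ1 they stood at 0.10, 0.00 and 0.08, with a mean of 0.06 ± 0.05 (SD over 3 probes). In H19Δ2 they had -0.04, 0.35 and 0.09, with a mean of 0.13 ± 0.20. The middle probe, starting at 149841807, set the H19Δ2 mean. With 50 kb on each side, which takes in 7 probes, that mean was 0.02. No probe of the window was lost or past 0.5 in either line, and 0.35 at a single probe falls well short of a doubling. With 3 probes the window is the least precise of those compared.

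The same was true of the *Kcnq1*/*Cdkn1c* cluster. Its window held 50 probes. In H19Δ1 their log2 ratios ran from -0.29 to 0.30 with a median of 0.04 and a mean of 0.04 ± 0.12 (SD over probes). In H19Δ2 they ran from -0.28 to 0.31 with a median of 0.00 and a mean of 0.00 ± 0.14. The ranges overlap almost wholly. None of the 50 was past 0.5 in either line, beside 0.31% of autosomal probes in H19Δ1 and 1.26% in H19Δ2. Past 0.3 were 0 in H19Δ1 and 2 in H19Δ2, beside 2.49% and 4.14% of autosomal probes. Of the 50, 33 were above 0 in H19Δ1 and 25 in H19Δ2. Above 0 were 80685 and 80684 of 161370 autosomal probes, which are centred on their median. Of the 499 domain probes outside the lost pair, 281 and 275 were. The mean difference, H19Δ2 minus H19Δ1, was -0.04 ± 0.17 (SD over 50 probes). The 21 probes between this window and that of *Igf2*, where *Ins2*, *Th* and *Ascl2* fall by gene order, had means of 0.03 ± 0.13 and 0.02 ± 0.13. *Ins2* encodes an insulin, *Th* the enzyme that starts catecholamine synthesis, and *Ascl2* a transcription factor needed in the placenta. Telomeric of the window, 159 probes had means of 0.02 ± 0.12 in H19Δ1 and 0.01 ± 0.13 in H19Δ2.

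**Figure D3:**
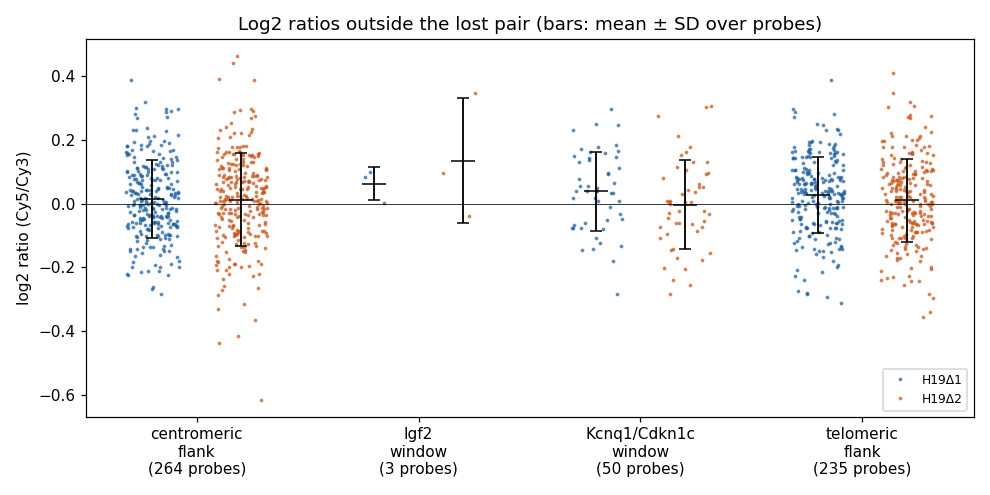
Log2 ratios of the probes outside the lost pair, as points for H19Δ1 (blue) and H19Δ2 (orange), with the mean and SD over probes in black, where the telomeric flank includes both windows. The means lie between 0.00 and 0.13, the highest being the 3 probes of the *Igf2* window in H19Δ2.

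The domain was then read as a whole for a wider gain or loss. Without the lost pair, its 499 probes averaged 0.02 ± 0.12 in H19Δ1 and 0.01 ± 0.14 in H19Δ2 (log2 ratio). All autosomal probes together had means of 0.00 ± 0.13 and 0.01 ± 0.16. The 264 probes of the centromeric flank had means of 0.01 ± 0.12 and 0.01 ± 0.15. The 235 probes of the telomeric flank had 0.03 ± 0.12 and 0.01 ± 0.13. Standard errors over the probes of a flank lay between 0.00748 and 0.00894. The highest flank mean, that of the telomeric side in H19Δ1, was 0.0259, a small shift on this scale. The rest of chromosome 7 had 0.01 in the same line. Without centring this flank mean was 0.0373, so its size depends on the centring.

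Means were also taken by distance from the edit. Within 100 kb of the middle of the lost pair, the 10 centromeric probes had means of 0.05 ± 0.13 in H19Δ1 and 0.08 ± 0.18 in H19Δ2. The 6 telomeric probes had 0.04 ± 0.11 and 0.03 ± 0.20. Between 100 and 500 kb, the 37 centromeric probes had 0.00 ± 0.11 and 0.00 ± 0.17, and the 26 telomeric probes had 0.01 ± 0.12 and 0.01 ± 0.13. In 11 successive stretches of 0.5 Mb, each with 34 to 55 probes and the lost pair left out, the medians of H19Δ1 ran from -0.03 to 0.05 and those of H19Δ2 from -0.02 to 0.05. The stretch that follows at the chromosome end held only 2 probes and is left out of these ranges, with medians of 0.04 and 0.17. The last 10 probes before the telomere had means of 0.00 ± 0.15 and -0.01 ± 0.13.

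**Figure D4:**
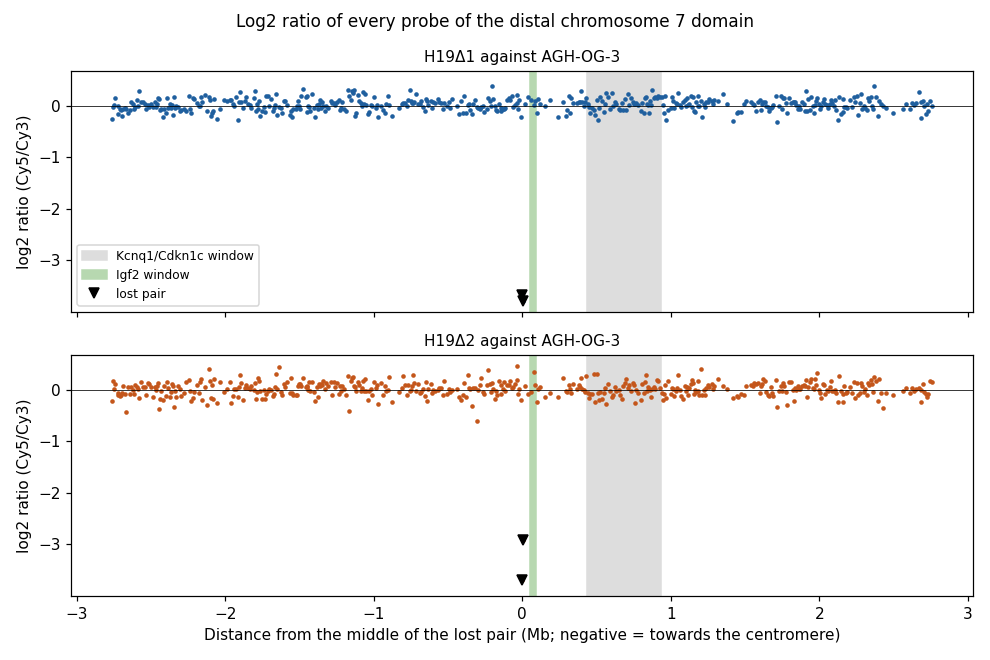
Log2 ratio of all 501 probes of the domain by distance from the middle of the lost pair (Mb), for H19Δ1 (top) and H19Δ2 (bottom), with the *Igf2* window in green and the *Kcnq1*/*Cdkn1c* window in grey. The lost pair (triangles) stands alone in both lines, and the lowest other probe, at -0.62 in H19Δ2, has neighbours near 0.

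Single probes were counted next. Past 0.5 in either direction were 2 of 501 members in H19Δ1 and 3 in H19Δ2, which is 0.399% and 0.599%. Of autosomal probes 0.31% and 1.26% were past it, and of the rest of chromosome 7 0.107% and 0.0429%. Outside the lost pair, 0 of 499 members in H19Δ1 and 1 in H19Δ2 were past it, or 0% and 0.2%. The lost pair made up the count in H19Δ1 and 2 of the 3 in H19Δ2. The other probe of H19Δ2 started at 149457837, 307 kb from the middle of the lost pair towards the centromere. Its ratio was -0.62 in H19Δ2 against -0.04 in H19Δ1. Its neighbours in H19Δ2 were at 0.04 and -0.01, so the low value stood on 1 spot. Between the arrays its Cy5 hardly moved, with 309 in H19Δ1 and 307 in H19Δ2, while Cy3 was 315 and 467. In the direction of loss alone the autosomal shares were 0.208% in H19Δ1 and 0.0936% in H19Δ2. In the direction of gain they were 0.102% and 1.16%, and no member was above 0.5 in either line.

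At the lower threshold of 0.3, 5 of the 499 probes outside the lost pair were past it in H19Δ1 and 17 in H19Δ2, which is 1.0% and 3.41% of them. Among autosomal probes these shares were 2.49% and 4.14%. Higher than 0.3 were 4 members in H19Δ1 and 9 in H19Δ2, beside 1.17% and 2.84% of autosomal probes. Lower than -0.3, outside the lost pair, were 1 and 8, beside 1.32% and 1.3%. In H19Δ2 the autosomal share of higher probes was above that of lower ones, so the rest of chromosome 7 is given as a closer background. There, 1.96% of 9321 probes were past 0.3 in H19Δ1 and 2.09% in H19Δ2, so the share of the domain was below this background in H19Δ1 and above it in H19Δ2. By direction in H19Δ2, 0.89% of the rest of chromosome 7 was higher and 1.2% lower, beside 1.8% and 1.6% of the domain. Not 1 pair of neighbours was past 0.3 in the same direction in either line. A probe starting at 151482539, in the telomeric flank, was the only 1 past 0.3 in both lines, with -0.31 in H19Δ1 and -0.34 in H19Δ2. None was past 0.3 in opposite directions. Autosomal shares were not computed for neighbouring pairs past 0.3 or for probes past 0.3 in both lines. These counts are therefore not read as a trait of the domain.

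Running means over 10 probes, which respond to a shift too small for a single probe, gave no stretch past 0.2 once the lost pair was left out, in 490 positions per line. On all autosomes 0.498% of such means were past 0.2 in H19Δ1 and 2.07% in H19Δ2. The autosomal shares of H19Δ2 rest on the same probes as above, with their excess of higher values. The study's own list of segments for H19Δ2 includes a long gain on chromosome 12, whose probes enter these shares. A lower share in the domain is therefore not read as an unusual lack of shifts. Shares of running means for the rest of chromosome 7 are not given. Past 0.1 were 12 positions in H19Δ1 and 7 in H19Δ2, which is 2.45% and 1.43% against 2.75% and 7.25% of autosomal positions. The lowest running mean lay at the same place in both lines, from 147040449 to 147127261, with -0.09 in each. The highest in H19Δ1 was 0.14, from 150627060 to 150711655, across the telomeric border of the *Kcnq1*/*Cdkn1c* window, where H19Δ2 was at 0.00. Of autosomal running means, 0.182% lay as far from 0 in that direction. The highest in H19Δ2 was 0.13, from 149640566 to 149732075, where H19Δ1 was at 0.07 and the autosomal share was 3.45%. It ended 33 kb from the middle of the lost pair and took in the single probe at 0.46. The probes nearer to the edit on this side, at -0.09, 0.02 and -0.20 in H19Δ2, lay outside it. These stretches were picked as the extremes of the domain.

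Segmentation of chromosome 7 placed its borders inside the domain at the same probes in both lines. It used the same log2 ratios by which the lost pair had been picked. The smallest segment allowed also had the size of that pair. The segment and its shared borders are therefore a description and not a separate test of the loss. The segmentation gave 3 segments, of which 1 was past 0.5, namely the lost pair. Its mean was -3.73 in H19Δ1 and -3.31 in H19Δ2 when the dim probe enters at its measured value. The segment before it ended at 149754688 and reached back to 114071816 in H19Δ1, over 2939 probes, and to 103886837 in H19Δ2, over 3845 probes. These segments had means of 0.01 and 0.00. The segment after it ran from 149782504 to the last probe at 152520747 over 235 probes, with means of 0.03 and 0.01. Across the autosomes, neighbouring pairs with both probes at -0.5 or lower made up 0.0886% of pairs in H19Δ1 and 0.0143% in H19Δ2. The domain had 1 such pair of 500 in each line, or 0.2%. It was the lost pair, which its selection below -2 had fixed in advance.

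The reach of these values is set by probe spacing. A gain or loss that falls between probes would not be seen, and the longest stretches without a probe were 66.2 kb from 152260216, 53.7 kb from 149954919 and 45.5 kb from 152214670. The second of these lies between *Igf2* and the *Kcnq1*/*Cdkn1c* window. An inversion or a translocation that keeps the number of copies leaves a log2 ratio unchanged, so rearrangements of that kind were not tested.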

How the data were processed

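Agilent SurePrint G3 Mouse CGH arrays were hybridized with genomic DNA of H19Δ1 or H19Δ2 and of AGH-OG-3, 1 array per line, both on 1 slide and in 1 scan. The authors deposited scanner output of Agilent Feature Extraction, version 11.5.1.1 per the file headers and 10.10 in the submitters' processing notes. To make its processed intensities, the software had subtracted background, removed spatial trends and scaled the dyes linearly. The deposited log10 ratio is Cy5 over Cy3, and the series matrix holds the same values. Positions are on mm9, per the file headers.

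Log2 ratios came from these intensities. Neither loess nor quantile normalization was applied, since either could remove true copy number shifts. Control spots and outlier-flagged spots (151 and 211) were left out, repeat spots were averaged, and the median over autosomal probes, 0.01 on each array, was subtracted. With 1 array per line no test was run, and the number of arrays limits the precision. A loss is given as a bound where the spot's Cy5 did not pass the software's background test. Chromosome 7 was segmented by penalised least squares, with at least 2 probes per segment and a penalty that multiplies the noise variance by 2 and by the natural log of the number of probes on the autosomes and X, and the method was tested on simulated data. Shares of autosomal probes rest on 161370 probes.

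The members, windows and gene list were chosen with earlier results of these data known. The probes named are the lost pair, the 5 nearest on each side and members past 0.5, plus probes at an extreme, past 0.3 in both lines or at a border, which were chosen after their values were seen. Alternatives were normexp with an offset of 50 on median spot intensities, the series matrix, the deposited log ratio, and other centrings, spot filters, windows, thresholds and segmentation settings. Calculations used Python 3.11.15, numpy 2.4.6, pandas 2.3.3, matplotlib 3.10.9, R 4.3.3 and limma 3.58.1.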

Additional observations from a re-analysis of the deposited data

How the results depend on the processing

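Over 15 results, 130 alternative values were computed, 2 of them with the nearest centromeric probe left out, a choice made after seeing the data. The width of the loss is among the 15 but had no alternative value. With normexp only the bright probe would count as lost, and the telomeric border would lie nearer to it. A log2 ratio was counted as moved when it changed by more than the noise of a single probe divided by the square root of the number of probes, and a count when it changed by over 1.5 times. On this basis 15 moved and none changed the sign of the loss. Normexp, which adds an offset to both channels, brought the mean of the lost pair to -1.89 in H19Δ1 and -1.94 in H19Δ2 and ended the call of its dim probe, at -0.28 and -0.37, and the bright lost probe alone, with dim probes left out, was at -3.70 in H19Δ2. The *Igf2* window of H19Δ2 went from 0.13 to 0.0211 with 50 kb on each side. The centromeric flank of H19Δ1 was 0.0257 without centring and 0.00359 as a median, and that of H19Δ2 was 0.0244 with normexp and 0.0204 without centring. The telomeric flank without centring was 0.0373 in H19Δ1 and 0.0184 in H19Δ2. Over 72 alternative values, the flanks and windows lay between -0.00381 and 0.142. Members past 0.5 numbered 1 in H19Δ1 both with normexp and without dim probes, in place of 2, and 6 in H19Δ2 with normexp, in place of 3, and at a threshold of 0.3 they numbered 7 and 19. The cause of these moves was not tested, except that a lower threshold and fewer probes change a count by construction. The count of segments past the threshold was 1 in each line under every setting run, but the segment was not always the same. With at least 3 or 5 probes per segment it has to take in probes that were not lost. With normexp its dim probe is short of 0.5. An unchanged count therefore does not show that the segment was stable. In H19Δ2 a penalty of 0.5 times the main one gave 4 segments in the domain instead of 3. No paired analysis was possible because the arrays are single and no result comes from a test, and leaving out a replicate was not possible for the same reason. Signal over background limits the depth of the loss at the dim probe.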
